A study of Mus musculus with 22 samples.

Results

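The 42 genes described here encode alpha chains of collagens and lie on autosomes. CpG positions were taken when they were covered in all 22 samples and lay between the first and last base of a member's RefSeq transcripts or within 2 kb of one of its transcription start sites (TSSs). This gave 2687 distinct positions, 0.236% of the 1140639 positions covered in all samples, and the 42 members are 42 of the 26180 mouse genes with curated RefSeq transcripts. A promoter was the window of 2 kb on each side of every TSS of the gene, and the gene body was the rest of the gene. Of these positions 961 lay in collagen promoters and 1726 in collagen gene bodies. Of the members 11 form fibrils (Col1a1, Col1a2, Col2a1, Col3a1, Col5a1, Col5a2, Col5a3, Col11a1, Col11a2, Col24a1 and Col27a1) and 31 belong to other collagen families.

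The study followed mammary glands of PyMT mice with enhanced reduced representation bisulphite sequencing (ERRBS), which reads the methylation of cytosines in CpG-rich fragments. PyMT mice were F1 females heterozygous for a polyoma middle T transgene, driven by the mouse mammary tumor virus promoter in the FVB background, and the controls were FVB females of the same age without the transgene. Bulk tissue was taken at week 6 (hyperplasia, 2 PyMT and 3 FVB mice), week 8 (adenoma or mammary intraepithelial neoplasia, adenoma/MIN, 3 and 3), week 10 (early carcinoma, 3 and 3) and week 12 (late carcinoma, 2 and 3). Each animal gave 1 sample, so that 10 PyMT and 12 FVB samples were compared, and the authors had removed 2 outliers.

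Collagens are trimers of alpha chains wound into a triple helix. Fibrillar collagens bundle into the fibers of the stroma and type IV collagens form the network of basement membranes, on which mammary epithelium rests. FACIT collagens decorate fibrils, and multiplexins sit at basement membranes and release fragments with activity on vessels. In gene bodies of mammals CpGs are usually methylated, whereas CpG-rich promoters are usually not.

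Coverage varied more between promoters than between samples. The mean read depth at the collagen positions lay between 59.3 and 80.3 reads per sample. Among promoters with positions the mean depth lay between 27.7 reads in Col24a1 and 114 in Col8a2. All 42 genes had positions, but 31 promoters and 41 gene bodies held the 3 positions needed for a test. The promoters of Col3a1, Col6a1, Col6a3, Col7a1, Col8a1, Col10a1, Col17a1, Col20a1, Col22a1, Col24a1 and Col28a1 were not testable, and neither was the body of Col1a2. In the RefSeq promoter table (GRCm38, 300 bases around the TSS) 33 of the members were found. The promoters with too few positions held a median of 4 CpGs there (10 genes), against 24 in the promoters that were higher in PyMT mice (11 genes), 10 in those that were lower (5 genes), 16 in those that did not pass (7 genes) and 8 over the 27025 genes of the table. Col4a1 and Col4a2 start head to head and share the same 49 promoter positions, and Col4a3 and Col4a4 share the same 10, so that the 31 tested promoters are not 31 separate measurements.

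The stretches of sequence that carry the main patterns are shown first, all on the plus strand of GRCm38 (mm10) and read from the RefSeq assembly, with each CpG measured in all 22 samples in capitals. The 250 bases upstream of the TSSs of Col16a1 (chr4:130047590-130047839) and Col9a2 (chr4:121039316-121039565) show what a covered, nearly unmethylated collagen promoter looks like. Across their positions the mean methylation was at most 1.64% in any sample for Col16a1, and between 1.17% and 7.86% for Col9a2.
Col16a1 upstream: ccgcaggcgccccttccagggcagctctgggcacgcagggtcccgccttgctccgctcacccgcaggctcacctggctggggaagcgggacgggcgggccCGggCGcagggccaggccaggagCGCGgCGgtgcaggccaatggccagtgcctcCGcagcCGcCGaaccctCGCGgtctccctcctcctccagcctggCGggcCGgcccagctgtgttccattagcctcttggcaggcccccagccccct
Col9a2 upstream: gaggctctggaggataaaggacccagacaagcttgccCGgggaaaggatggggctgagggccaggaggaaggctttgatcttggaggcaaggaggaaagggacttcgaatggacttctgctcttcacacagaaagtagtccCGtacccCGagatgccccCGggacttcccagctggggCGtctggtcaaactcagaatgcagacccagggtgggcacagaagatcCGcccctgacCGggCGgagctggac

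Inside the same 2 genes lay the densest changes, in opposite directions. In Col16a1 (chr4:130081381-130081574, an intron of the curated transcript, part of which predicted RefSeq models annotate as an exon) all 8 measured positions were lower by at least 10 points in PyMT mice at every stage. In Col9a2 (chr4:121053072-121053187, coding exons) 9 of 11 positions were higher by at least 10 points in late carcinoma (q under 0.01).
Col16a1 body: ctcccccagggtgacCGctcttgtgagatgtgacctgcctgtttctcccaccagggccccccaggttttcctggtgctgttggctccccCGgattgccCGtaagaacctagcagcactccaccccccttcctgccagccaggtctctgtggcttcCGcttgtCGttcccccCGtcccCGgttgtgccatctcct
Col9a2 body: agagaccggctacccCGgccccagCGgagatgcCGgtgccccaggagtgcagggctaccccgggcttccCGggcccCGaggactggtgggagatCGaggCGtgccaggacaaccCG

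A pair of further stretches was picked after their values were seen, because they lost methylation in a compact block. One lies in an intron of Col15a1 (chr4:47277795-47277921) and the other upstream of Col11a2 (chr17:34038488-34038753), from position -650 to -385 relative to its TSS.
Col15a1 intron: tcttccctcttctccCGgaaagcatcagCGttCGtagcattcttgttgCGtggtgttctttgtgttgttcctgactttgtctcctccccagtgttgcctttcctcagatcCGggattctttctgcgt
Col11a2 upstream: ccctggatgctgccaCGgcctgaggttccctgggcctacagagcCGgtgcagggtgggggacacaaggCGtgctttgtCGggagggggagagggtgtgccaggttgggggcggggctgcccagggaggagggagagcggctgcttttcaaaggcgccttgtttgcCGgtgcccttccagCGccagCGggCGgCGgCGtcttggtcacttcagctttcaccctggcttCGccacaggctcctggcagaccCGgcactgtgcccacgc

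Most collagen gene bodies were less methylated in PyMT mice, while more promoters were higher than lower. Over all weeks 32 of the 41 gene bodies were lower in PyMT than in FVB mice, 5 were higher and 4 did not pass the test (limma with week as a factor, Benjamini-Hochberg adjusted p under 0.05 over all genes). Over all 11437 gene bodies tested 46.4% were lower and 20% higher. The median difference was -7.22 percentage points over the collagen bodies and -1.71 over all bodies. The 32 lower bodies ran from -2.03 points in Col22a1 to -23.1 in Col20a1, and 10 of them fell by more than 10 points. Among the 31 tested promoters 15 were higher, 7 were lower and 9 did not pass, where 17.0% of all 16407 promoters were higher and 17.3% lower. The higher promoters all had control levels under 10% and rose by 0.274 to 4.46 points, so that the median difference over the collagen promoters was 0.274 points, against -0.00618 over all promoters. The mean over the 31 promoters pointed the other way, from 11.4% in FVB to 10.6% in PyMT samples (-0.782 points, against -0.410 over all promoters), and that of the 9 fibrillar promoters differed by -0.432 points. Since whole tissue was read, a change in the cells that made up the gland and a change of methylation within its cells cannot be told apart in any of these values.

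**Figure D1:**
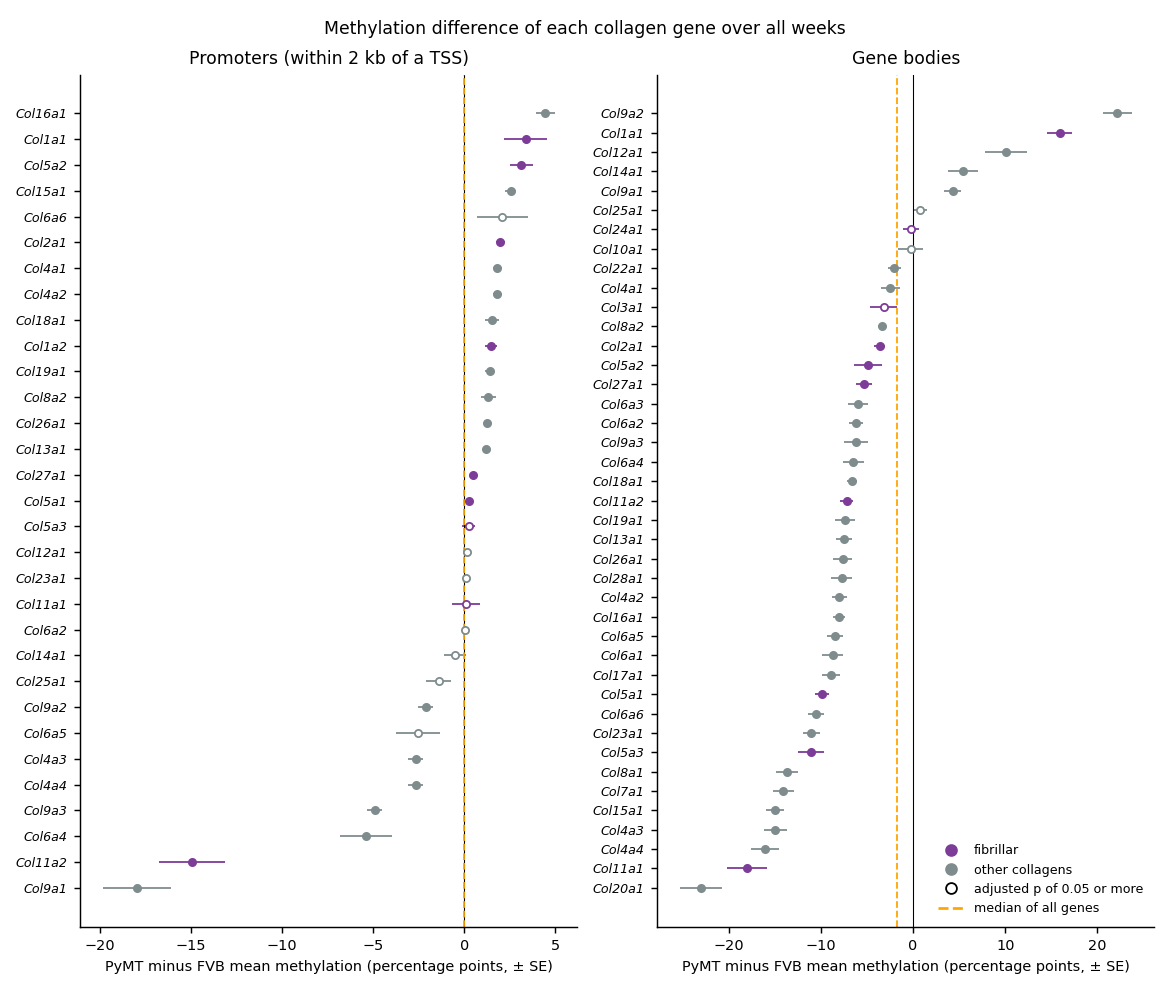
Each point is the PyMT minus FVB difference in mean methylation of a collagen promoter (left) or gene body (right), in percentage points with its standard error from limma over 22 samples. Purple points are fibrillar collagens, open points did not pass the test and the dashed line is the median over all genes. Most bodies lie left of 0 with a median of -7.22, while most promoters lie within 5 points of 0.

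Beside genes of a like control level the collagens kept a larger share of lower bodies at 50% and above, where most of their bodies lay. Of the 23 collagen bodies with a control level of 50 to 80%, 20 were lower in PyMT mice (87.0%), against 52.9% of the 4584 bodies of that level over all genes. Of the 13 bodies at 80% or more, 10 were lower (76.9%), against 43.4% of 4920. Of the 3 bodies at 20 to 50%, 1 was lower (33.3%) and 2 were higher, against 46.8% lower and 28.1% higher of 1189. Of the 2 bodies under 20%, 1 was lower, against 24.9% of 744. Among the 26 promoters under 20% in the controls, 15 were higher (57.7%), against 17.1% of 13571, and 4 were lower (15.4%), against 12.9%. Of the 2 promoters at 20 to 50% 0 were higher and 1 was lower, against 18.0% higher and 28.3% lower of 1186. Of the 2 at 50 to 80% 0 were higher and 2 were lower, against 21.7% higher and 46.2% lower of 897. The 1 above did not pass, where 8.37% of 753 were higher and 46.2% lower. These shares are descriptions and were not tested against each other.

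When promoter and body were compared within a gene, the difference between both (promoter minus body) was higher in PyMT mice in 21 of 30 genes and lower in 7 by limma, where 41.6% of the 9226 genes with both regions were higher and 23.3% lower. In controls the promoter was below the body in 29 of these 30 genes, and Col6a6 was the exception. The largest rise was in Col11a1, from -72.7 to -54.5 points, and the largest fall in Col9a2, from -47.1 to -71.3 points. The 7 genes with a lower promoter minus body value were Col9a2, Col9a1, Col1a1, Col12a1, Col11a2, Col14a1 and Col25a1.

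The most abundant collagen of the stroma, type I, had a gene body that gained methylation. In the 30 body positions of Col1a1 (chromosome 11, 94936224 to 94953042, plus strand) the FVB samples ran from 44.2% through a median of 49.4% to 56.01%, and the PyMT samples from 60.4% through 65.3% to 69.1%. All PyMT samples thus lay above all FVB samples, as in 4.85% of all gene bodies tested. The difference was 15.9 ± 1.38 points (SE, limma adjusted p = 4.9e-09). An exact two-sided permutation test within weeks gave p = 2.5e-05, the smallest its 40000 arrangements allow. By stage the PyMT means were 64.3 ± 2.9% (SD, n = 2) at hyperplasia, 63.8 ± 2.4% (n = 3) at adenoma/MIN, 63.7 ± 2.9% (n = 3) at early and 68.5 ± 0.92% (n = 2) at late carcinoma. The FVB means were 53.6 ± 3.0%, 50.1 ± 2.8%, 46.0 ± 2.3% and 46.8 ± 3.4% (n = 3 each). The position with the largest mean difference lay in a coding exon (chromosome 11, 94944380) and averaged 36.3% in FVB and 82.9% in PyMT samples at a mean depth of 24.9 reads. A coding exon position of Col1a1 at 94948730 was listed at 0% in every sample.

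The promoter of Col1a1 held only 4 positions. FVB samples ran from 4.76% through 8.25% to 13.8% and PyMT samples from 5.80% through 13.3% to 15%, so that the groups overlapped. The difference of 3.39 ± 1.17 points passed over all weeks (limma adjusted p = 0.031), but it was 0.014 points with adjusted p = 0.98 when a depth of 20 reads was asked for, and the call held in only 2 of 12 alternatives. In Col1a2, the partner chain of type I collagen, the 4 promoter positions averaged 0.479 ± 0.36% in FVB (SD, n = 12) and 1.87 ± 1.4% in PyMT samples (SD, n = 10), a difference of 1.47 ± 0.315 points (limma adjusted p = 0.00094). Both late carcinoma samples stood out, with a mean of 4.33 ± 0.30% against 0.846 ± 0.21% in their controls. Col3a1, the fibrillar collagen found beside type I in soft tissue, was read only at 4 intron positions of its body. There FVB samples ran from 9.84% through 12.6% to 22.1% and PyMT samples from 6.33% through 9.90% to 19.4%, and the difference of -3.22 ± 1.48 points did not pass (limma adjusted p = 0.063).

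The other fibrillar collagens mostly lost gene body methylation. Of the 10 tested fibrillar bodies 7 were lower (70%), and Col1a1 alone was higher (10%), against 46.4% and 20% of all bodies. Col11a1 fell most, with -18.0 ± 2.20 points on 3 positions, Col5a3 followed with -11.1 ± 1.38 and Col5a1 with -9.92 ± 0.740 on 78 positions (limma). Col3a1 and Col24a1 did not pass. Among the 9 fibrillar promoters 6 were higher (66.7%) and 1 was lower (11.1%), against 17.0% and 17.3% of all promoters. Col5a2, a chain of the type V collagen that sets fibril diameter, had FVB promoter values from 0 through 0.918% to 1.91% and PyMT values from 2.41% through 3.04% to 8.65%. No sample overlapped, and the difference was 3.13 ± 0.626 points (limma adjusted p = 0.00049). All PyMT above all FVB samples was seen for 4.51% of all promoters.

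The single lower fibrillar promoter was that of Col11a2 (chromosome 17), a chain of the cartilage fibril collagen type XI. Its 20 positions ran from 15.7% through 24.8% to 32.7% in FVB and from 4.87% through 9.41% to 16.7% in PyMT samples. Only the highest PyMT sample reached the FVB range. The difference was -14.9 ± 1.81 points (limma adjusted p = 2.3e-06, exact permutation p = 2.5e-05). At hyperplasia the means were 12.1 ± 3.2% (SD, n = 2) and 20.2 ± 4.5% (n = 3), and at early carcinoma 7.45 ± 1.9% and 28.1 ± 4.1% (n = 3 each). In the upstream block printed above 9 of 14 positions were lower by at least 10 points in late carcinoma at q under 0.01. The position at 34038466, -672 bases relative to the TSS, fell from 58.7% to 17.3%.

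In both the fibrillar and the other collagens most bodies were lower, and the difference between the sets was not tested. Lower bodies made up 7 of 10 fibrillar (70%) and 25 of 31 other collagens (80.6%), against 46.4% of all bodies. The medians were -5.16 and -7.48 points, against -1.71 over all bodies. The mean over the 10 fibrillar bodies in each mouse ran from 64.9% through 66.4% to 67.4% in FVB and from 58.8% through 61.0% to 65.1% in PyMT samples. The mean over the 31 others ran from 69.9% through 71.1% to 72.3% and from 63.4% through 64.4% to 67.1%. The groups overlapped in the fibrillar set and not in the other set. Nor did they overlap in the mean over all gene bodies tested (69.2% to 70.2% in FVB, 66.1% to 67.8% in PyMT samples). Without Col1a1 the difference of the fibrillar mean went from -4.78 to -7.08 points, past the -6.07 of the other collagens. The order of the 2 means thus turned on that gene, with Col9a2 (22.2 points), the largest gain, kept in the other set. The medians were not recomputed in this way. Promoter levels were lower in the fibrillar set, at 4.64% against 14.1% in FVB samples.

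**Figure D2:**
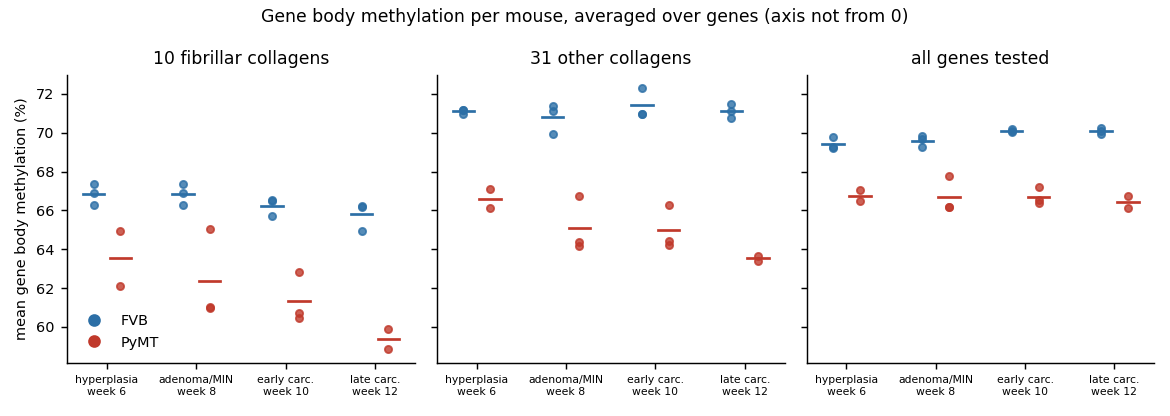
Mean gene body methylation (percent, on an axis that does not start at 0) of every mouse over 10 fibrillar collagens, 31 other collagens and all genes tested, by stage. Points are mice and bars are group means. PyMT mice fall from 63.5% at hyperplasia to 59.4% at late carcinoma in the fibrillar set, while over all genes they stay between 66.1% and 67.8%.

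The bodies of all 4 type IV genes were lower, where 46.4% of all bodies were lower. Of their promoters 2 were higher and 2 lower, where 17.0% and 17.3% of all promoters were. Col4a1 and Col4a2 encode the chains of the common basement membrane network and share a CpG-rich promoter on chromosome 8 (positions 11312611 to 11313175). Its 49 positions averaged between 0.103% and 0.623% in FVB samples, with a median of 0.207%, and between 0.771% and 3.76% in PyMT samples, with a median of 2.14%. The groups did not overlap and the difference was 1.82 ± 0.237 points (limma adjusted p = 5.4e-06, exact permutation p = 2.5e-05). The PyMT mean was 0.984 ± 0.30% at hyperplasia (SD, n = 2), 1.93 ± 0.61% at adenoma/MIN (n = 3), 2.35 ± 0.35% at early carcinoma (n = 3) and 3.01 ± 1.1% at late carcinoma (n = 2). The difference was thus larger at week 12 than at week 6 by 2.21 ± 0.520 points (limma interaction, adjusted p = 0.033), a call that held in 6 of 14 alternatives.

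The Col4a2 body (72 positions) ran from 68.9% through 71.0% to 73.6% in FVB and from 59.7% through 61.9% to 66.6% in PyMT samples, and differed by -8.01 ± 0.853 points (limma adjusted p = 8.2e-08). Within it both directions occurred. At an intron block of 6 positions (chromosome 8, 11369948 to 11370022) FVB samples ran from 45.4% to 68.1% and PyMT samples from 69.7% to 86.3%. In a coding exon (13 positions, 11446017 to 11446204) they ran from 90.6% to 95.2% and from 73.3% to 86.0%. The Col4a1 body (77 positions) overlapped, with FVB samples from 61.3% through 65.9% to 67.6% and PyMT samples from 57.9% through 63.0% to 67.3%. Its difference of -2.47 ± 1.03 points was close to the threshold (limma adjusted p = 0.042).

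Col4a3 and Col4a4, chains of the specialised type IV network of kidney and lung, lost more. The 16 body positions of Col4a3 ran from 79.9% through 86.2% to 89.2% in FVB and from 65.4% through 71.7% to 74.7% in PyMT samples, and the 19 of Col4a4 from 62.1% through 72.3% to 78.5% and from 52.7% through 55.5% to 58.2%. The differences were -14.98 ± 1.23 and -16.1 ± 1.54 points, without overlap (limma adjusted p = 2.4e-09 and 1.9e-08). All PyMT below all FVB samples was seen for 19.4% of all gene bodies. Their shared promoter, at 4.27% in the median FVB sample and 1.81% in the median PyMT sample, went down by 2.66 ± 0.403 points, the opposite direction to that of Col4a1 and Col4a2.

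FACIT collagens held both extremes. Of the 9 FACIT bodies 4 were higher (44.4%) and 5 lower (55.6%), against 20% and 46.4% of all bodies, so the share of lower bodies was near the background. Outside this family 1 of the 32 tested bodies was higher. The 31 body positions of Col9a2, a chain of type IX collagen on the surface of cartilage fibrils, ran from 46.4% through 51.1% to 58.2% in FVB and from 67.7% through 73.6% to 78.2% in PyMT samples. The difference of 22.2 ± 1.59 points was the largest gain (limma adjusted p = 3.7e-10, exact permutation p = 2.5e-05), and it was present at hyperplasia, with 72.3 ± 5.6% (SD, n = 2) against 53.5 ± 4.1% (n = 3). The block printed above went from a range of 19.2% to 43.0% in FVB to 48.2% to 75.2% in PyMT samples, and its neighbour of 8 positions (chromosome 4, 121052455 to 121052761) from 28.2% to 45.5% up to 56.2% to 71.9%. The Col9a2 promoter moved the other way, by -2.12 ± 0.409 points (limma adjusted p = 0.00036).

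**Figure D3:**
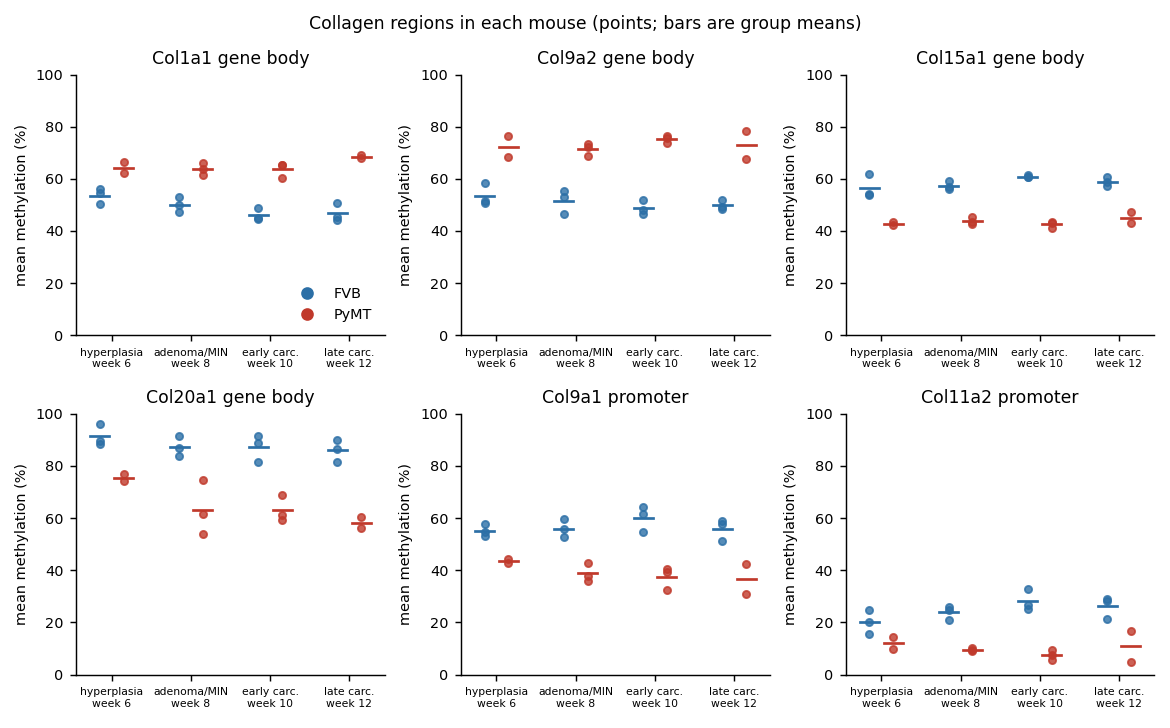
Mean methylation (percent) of 4 gene bodies and 2 promoters in each of the 22 mice by stage. Points are mice and bars are group means. Col1a1 and Col9a2 bodies lie higher in every PyMT mouse and Col15a1, Col20a1 and the Col9a1 promoter lie lower in every one, while the Col11a2 promoter overlaps in 1 PyMT mouse.

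The other type IX chains lost promoter methylation as well. In Col9a1 the 6 promoter positions ran from 51.3% through 56.8% to 64.3% in FVB and from 31.01% through 39.99% to 44.3% in PyMT samples. The difference of -18.0 ± 1.87 points was the largest of any collagen promoter (limma adjusted p = 3.8e-07), and all PyMT below all FVB samples was seen for 5.35% of all promoters. The strongest position lay 101 bases after a TSS of Col9a1, in a UTR or noncoding exon (chromosome 1, 24195304), and went from 52.7% to 14.7%. The body of Col9a1 rose by 4.28 ± 0.939 points (limma adjusted p = 0.00047). In Col9a3 the 36 promoter positions ran from 5.88% through 7.33% to 9.36% and from 1.63% through 2.61% to 3.62%, a difference of -4.91 ± 0.405 points without overlap (limma adjusted p = 2.2e-08).

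Col20a1 had the largest loss of any collagen body, on only 5 positions of coding exon and intron (chromosome 2, 181008479 to 181008606). FVB samples ran from 81.3% through 88.7% to 96.3% and PyMT samples from 53.7% through 61.4% to 76.9%, and the difference was -23.1 ± 2.28 points (limma adjusted p = 3.0e-08). Col16a1, a FACIT collagen that binds integrins, combined a higher promoter with a lower body. Its 20 promoter positions ran from 6.36% through 7.76% to 10.7% in FVB and from 11.7% through 12.4% to 14.1% in PyMT samples (4.46 ± 0.509 points, limma adjusted p = 1.1e-06). The rise lay in 4 positions from -1903 to -1832 bases relative to the TSS, which ran from 31.3% to 50.6% in FVB and from 53.0% to 69.7% in PyMT samples. The 16 positions around its TSS stayed at or under 1.93% in every sample, and with a promoter of 1 kb on each side the difference was -0.0908 points. The 103 body positions differed by -8.06 ± 0.650 points. In the intron block printed above the FVB samples ran from 33.9% through 54.6% to 65.6% and the PyMT samples from 7.22% through 11.8% to 14.3%. Col12a1 (10.1 ± 2.29 points) and Col14a1 (5.40 ± 1.63), FACIT collagens of dense connective tissue, were the remaining higher bodies (limma adjusted p = 0.00067 and 0.0067).

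The multiplexins Col15a1 and Col18a1, source of the vessel-inhibiting fragment endostatin in the case of Col18a1, were higher at the promoter and lower in the body. The 34 body positions of Col15a1 ran from 53.7% through 59.0% to 61.9% in FVB and from 41.2% through 43.1% to 47.3% in PyMT samples (-14.98 ± 0.998 points, limma adjusted p = 1.4e-10). The difference was -13.8 points at hyperplasia and -13.8 points at late carcinoma. The intron block printed above fell from a range of 61.0% to 82.1% to one of 8.98% to 25.8%, and a second block of 4 positions (chromosome 4, 47233202 to 47233287) from 43.4% to 64.2% down to 8.82% to 24.7%. Its 58 promoter positions rose by 2.55 ± 0.309 points. The 94 body positions of Col18a1 ran from 78.5% through 80.5% to 81.4% and from 71.2% through 73.9% to 75.1% (-6.65 ± 0.532 points, limma adjusted p = 1.6e-09). The intron position at 77081389 of chromosome 10 went from 73.5% to 21.8%. Its 44 promoter positions overlapped, from 6.55% through 7.30% to 8.80% and from 7.06% through 9.27% to 10.0%, with a difference of 1.52 ± 0.406 points (limma adjusted p = 0.0056) that turned to -0.148 points with a minimum of 20 reads.

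**Figure D4:**
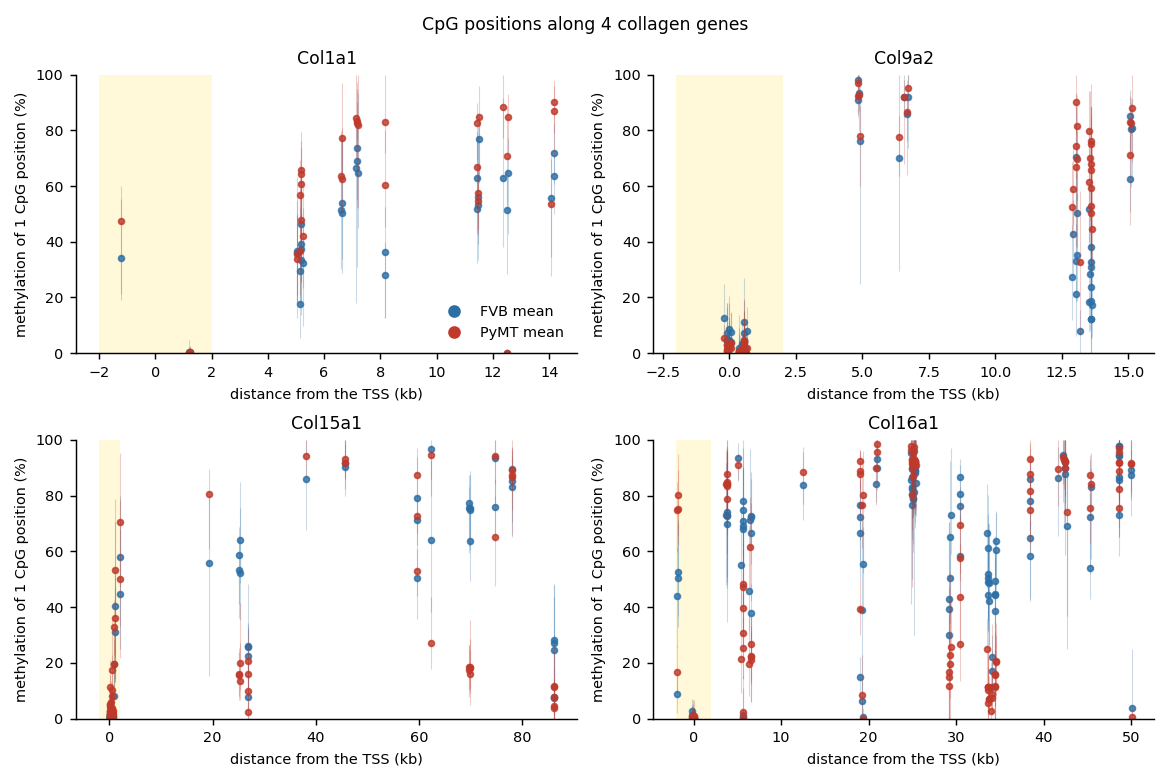
Methylation (percent) of each CpG position along Col1a1, Col9a2, Col15a1 and Col16a1 against its distance from the TSS in kb. Points are means over 12 FVB (blue) and 10 PyMT (red) samples, thin lines run from the lowest to the highest sample and the shaded band is the promoter. Red lies above blue in most of the Col1a1 body and in the 3′ block of Col9a2. It lies below blue in the intron blocks of Col15a1 and Col16a1 printed above. The means of these printed blocks reach at most 25.8% and 14.3% in PyMT samples. Other intron blocks of Col16a1 differ in both directions.

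Among the remaining families all 6 tested bodies of type VI collagens, which form beaded filaments around cells, were lower, where 46.4% of all bodies were. Their differences lay between -6.01 points in Col6a3 and -10.5 in Col6a6. The Col6a4 promoter had a control range from 65.7% through 71.8% to 77.7% and a PyMT range from 58.9% through 66.1% to 73.98% (-5.40 ± 1.44 points, limma adjusted p = 0.0057), and the groups overlapped. Its upstream position at 106097670 of chromosome 9 went from 74.2% to 38.3%. The body of Col7a1, the collagen that anchors basement membranes to the dermis, fell by 14.1 ± 1.13 points, and that of Col8a1, a short-chain collagen of vessel walls, by 13.7 ± 1.16. The transmembrane collagens Col13a1, Col17a1 and Col23a1 were lower, while Col25a1 did not pass.

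The direction was set early and the size of the body losses mostly grew. At hyperplasia 22 of the 41 bodies were lower and 2 higher, where 24.2% of all bodies were lower and 6.77% higher. The 2 higher ones were Col1a1 and Col9a2. The number of lower bodies was 27 at adenoma/MIN (30.9% of all bodies), 29 at early carcinoma (34.8%) and 28 at late carcinoma (34.6%), beside 3, 4 and 5 higher bodies (10.5%, 13.1% and 13.0%). The median collagen body difference went from -5.47 points to -6.55, -7.00 and -8.80 points over the 4 stages. The difference was below 0 at all 4 stages in 33 bodies and above 0 in 4. Of the 32 lower bodies 28 were further down at week 12 than at week 6. These counts were not made over all bodies, so they have no background beside them. The interaction itself passed only for Col23a1 (-9.32 ± 1.86 points, limma adjusted p = 0.023), a call that held in 7 of 15 alternatives, where 1.76% of all bodies passed. For promoters it passed for Col1a2 (2.75 ± 0.594 points), Col19a1 (2.96 ± 0.382) and the shared window of Col4a1 and Col4a2, in 5 of 13, 12 of 14 and 6 of 14 alternatives. These were 4 of 31 promoters, with the shared window counted for both of its genes, where 2.94% of all promoters passed. Between the premalignant and malignant stages the interaction passed for the Col19a1 promoter (2.63% of all promoters) and the Col6a2 body (1.46% of all bodies), in 10 of 14 and 6 of 15 alternatives. Of promoters 1 was higher and 1 lower at hyperplasia (2.91% and 5.88% of all promoters), Col2a1 and Col9a3. The counts were 10 and 5 at adenoma/MIN (8.83% and 8.59%) and 11 and 6 at early carcinoma (11.8% and 10.8%). At late carcinoma 11 were higher and 4 lower (12.5% and 9.78%).

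Single positions were tested stage by stage. A differentially methylated CpG (DMC) was a position with q under 0.01 by a likelihood-ratio test of the pooled reads of a stage and a difference of at least 10 points. In collagen bodies hypo-DMCs made up 17.8% of the 1726 positions at hyperplasia, 22.7% at adenoma/MIN, 26.2% at early and 30.2% at late carcinoma. The background in all gene bodies was 12.9%, 14.7%, 17.4% and 17.4%. Hyper-DMCs made up 4.98%, 5.45%, 6.84% and 6.26%, below the 6.18%, 7.53%, 9.51% and 9.05% of all bodies. In collagen promoters hypo-DMCs were 15, 29, 32 and 27 of 961 positions (background 1.13%, 1.37%, 1.46% and 1.34%), and hyper-DMCs 13, 14, 28 and 28 (background 0.887%, 1.15%, 1.91% and 2.29%). As shares, hypo-DMCs were 1.56%, 3.02%, 3.33% and 2.81% of promoter positions and hyper-DMCs 1.35%, 1.46%, 2.91% and 2.91%, so that single promoter positions did not show more gains than losses before late carcinoma. This test takes reads as the unit and not mice, and with a correction for overdispersion the body hypo-DMCs numbered 147 instead of 307 at hyperplasia and 317 instead of 521 at late carcinoma.

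**Figure D5:**
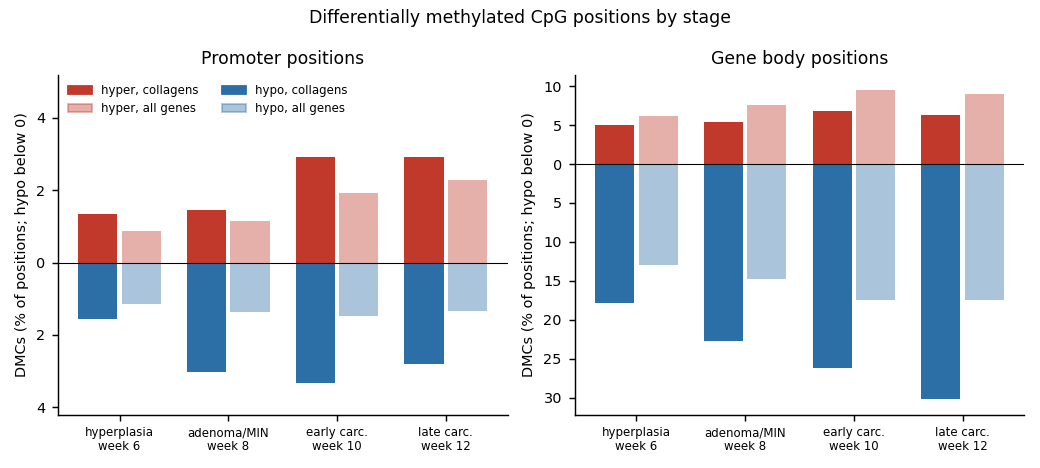
DMCs as a percent of positions in promoters (left) and gene bodies (right) by stage, with hyper-DMCs above 0 and hypo-DMCs below. Dark bars are collagen genes and pale bars all genes. Hypo-DMCs of collagen bodies grow from 17.8% to 30.2%, and those of all bodies from 12.9% to 17.4%.

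The losses included positions that were highly methylated in controls. Among the 874 body positions above 80% in controls 28.7% were hypo-DMCs at late carcinoma, against 14.7% of the 118291 such positions over all bodies, and among the 670 at 20 to 80% the share was 39.1% against 31.1%. In the bodies 31.4% of 640 coding exon positions and 29.6% of 1063 intron positions were hypo-DMCs at late carcinoma. At that stage hypo-DMCs occurred in the bodies of 36 genes and hyper-DMCs in 22, and 18 genes held both. Shares by exon and intron and counts of genes were not made over all genes. Of all body positions 17.4% were hypo- and 9.05% hyper-DMCs at late carcinoma. Over all 4 stages 181 body positions in 26 genes were hypo-DMCs each time and 31 in 11 genes were hyper-DMCs each time, 10.5% and 1.80% of positions against 7.18% and 2.60% in all bodies. Col16a1 (26), Col6a6 (17), Col23a1 (16) and Col18a1 (14) held the most of the former and Col9a2 (9) the most of the latter. In promoters 7 positions were hypo-DMCs and 5 hyper-DMCs at all 4 stages, 0.728% and 0.520% against 0.583% and 0.353% in all promoters.

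Promoters of cell type markers of the gland differed between the groups for some cell types and not in 1 direction for others. Of all promoters tested 17.0% were higher and 17.3% lower. The mean promoter methylation of the 6 luminal epithelium markers lay between 10.5% and 15.7% in FVB and between 3.71% and 6.22% in PyMT samples, and all 6 were lower by limma. The 4 tested of 6 adipocyte markers lay between 50.9% and 58.8% and between 42.0% and 50.03%, with 2 lower and 1 higher. The 4 tested of 6 fibroblast markers lay between 17.0% and 22.5% and between 19.9% and 24.99%, with 1 higher and 3 that did not pass. Only 1 of 4 basal markers was testable (56.1% to 76.7% and 54.9% to 64.4%, lower). Of endothelial markers 3 of 5 were tested (31.1% to 38.8% and 31.1% to 37.0%, 1 higher and 2 lower) and of leukocyte markers 2 of 6 (66.6% to 73.99% and 58.8% to 80%, 1 in each direction). The part of cell makeup in the collagen differences was not tested.

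Genes that act on collagen were read beside it. Of 25 genes that modify, fold, cleave or cross-link collagen 22 promoters were tested, and 7 were higher and none lower by limma. These were 31.8% and 0%, against the 17.0% and 17.3% of all promoters. Loxl1, a cross-linking oxidase, rose most, from 13.3 ± 2.1% (SD, n = 12) to 28.0 ± 3.5% (SD, n = 10), with a difference of 14.7 ± 1.23 points. Lox (3.71 ± 0.533), Serpinh1, the collagen chaperone (3.26 ± 0.604), Adamts3, Adamts2, P3h3 and Plod3 were the others. Of their 19 tested bodies 6 were higher and 8 lower, 31.6% and 42.1% against the 20% and 46.4% of all bodies. They ran from -28.1 points in Loxl4 to 29.95 in Serpinh1, whose body held only 3 positions. Of the 7 collagen receptor genes 1 promoter was higher, that of Ddr1 (2.43 ± 0.277 points), and 1 was lower, that of Ddr2 (-8.76 ± 1.29 points). Both genes encode discoidin domain receptors. Each call made up 14.3% of these promoters, near the 17.0% higher and 17.3% lower of all promoters. Of the 7 receptor bodies 3 were higher and 4 lower, 42.9% and 57.1% against the 20% and 46.4% of all bodies. The largest gain was 24.9 ± 2.59 points in Itgb1, the beta chain of the collagen-binding integrins.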

How the data were processed

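ERRBS libraries of 22 mammary samples were read as deposited. The authors aligned reads to mm10 with Bismark (version not given in the sources used here) and deposited, per the file headers, the coverage (read count) and the percent of C and T at each CpG position with at least 10 reads. Positions of both strands were kept separately. Genes came from curated RefSeq transcripts on GRCm38.p6, the same build. Methylated read counts were rebuilt from coverage and percent. DMCs were tested per stage with a logistic likelihood-ratio test on pooled reads, with Benjamini-Hochberg q over 1140639 positions. Regions were tested with limma 3.58.1 (R 4.3.3) on the unweighted mean percent of each sample, with week as a factor or with 8 week-by-strain groups, in regions of at least 3 positions, and with Benjamini-Hochberg adjustment over all genes tested. Single regions were also tested by an exact permutation test of strain within week. Tables were handled with pandas 2.3.3 under Python 3.11.15, tests of reads with SciPy 1.17.1 and NumPy 2.4.6, and plots with matplotlib 3.10.9. Scripts were tested on simulated data.

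The 6 promoters and 6 bodies with the largest difference on at least 5 positions were given in full, with Col1a1, Col1a2, Col3a1, Col4a1, Col4a2 and Col18a1. The members, gene lists and tests were chosen with earlier results of these data known. The 20 pairs of samples of a group differed by more than sampling noise (mean chi-square 1.83 to 3.51 per position), so none was merged. Alternatives covered read depth, promoter width, minimum positions, weighting, logit scale, overdispersion, the difference asked of a DMC, positions near another TSS, a replicate block and leaving out replicates.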

Additional observations from a re-analysis of the deposited data

Results flagged for a closer look

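In 6 genes the PyMT minus FVB difference passed a limma interaction test between stages with Benjamini-Hochberg adjustment, but none of these calls held with the replicate block or on the logit scale. From hyperplasia to late carcinoma it rose by 2.75 points in the Col1a2 promoter (adjusted p = 0.021), by 2.21 points in the promoter that Col4a1 and Col4a2 share (0.033) and by 2.96 points in the Col19a1 promoter (0.00070), and in the Col23a1 body it changed by -9.32 points (0.023). Between the premalignant and the malignant stages it rose by 1.52 points in the Col19a1 promoter (0.0045) and changed by -4.59 points in the Col6a2 body (0.044). The Col19a1 promoter, of a FACIT collagen of basement membrane zones, averaged 0.736%, 1.65%, 1.91% and 3.34% in PyMT mice over the 4 stages and between 0.363% and 0.717% in FVB mice. The Col23a1 body averaged 62.7% at hyperplasia and 55.9% at late carcinoma in PyMT mice and 68.7% and 71.2% in FVB mice. Of the alternatives run, the week 12 against week 6 call held in 5 of 13 for Col1a2, 6 of 14 for Col4a1 and for Col4a2, 12 of 14 for Col19a1 and 7 of 15 for Col23a1, and the call between premalignant and malignant stages in 10 of 14 for Col19a1 and 6 of 15 for Col6a2. The week 12 PyMT group holds 2 mice.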

How the results depend on the processing

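Counts of collagen promoters and bodies called over all weeks mostly held, but the count of higher promoters depended on the promoter window. With a promoter of 2 kb upstream only, 5 promoters were higher instead of 15. The excess of higher promoters was thus smaller or absent without the positions after the TSS. In that setting 4 genes were lower by promoter minus body, and 0 promoters and 2 bodies passed the interaction of week 12 with week 6. A minimum of 20 reads gave 4 lower promoters, 3 higher bodies and 4 genes lower by promoter minus body, and a minimum of 10 positions gave 4 genes lower by promoter minus body and 7 bodies with an interaction. That interaction passed in 0 promoters and 0 bodies on the logit scale, in 0 bodies with coverage weights and in 2 promoters without positions near another TSS, and leaving out replicates gave 1 to 4 promoters and 0 to 2 bodies. The difference turned to -0.0908 points in the Col16a1 promoter with 1 kb on each side and to -0.148 in the Col18a1 promoter with 20 reads. The cause was not tested.

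For DMCs, given as hyper and hypo, a difference of 25 points left 5 and 4, 4 and 8, 6 and 12, and 4 and 7 in promoters over the 4 stages, and 38 and 156, 33 and 178, 51 and 228, and 63 and 280 in bodies. The overdispersion correction left 4 and 4 in promoters and 29 and 147 in bodies at hyperplasia, 5 and 17 and 28 and 154 at adenoma/MIN, 14 hyper in promoters and 65 and 284 in bodies at early carcinoma, and 13 hypo in promoters and 56 and 317 in bodies at late carcinoma. Promoters of 1 kb held 5 hyper-DMCs at hyperplasia and 8 at adenoma/MIN, and those of 2 kb upstream only 5 and 6, 7 and 13, 10 and 18, and 7 and 12. Leaving out replicates gave 39 to 101 body hyper-DMCs at hyperplasia (lowest without PyMT replicate 1), 6 to 16 promoter hyper-DMCs at adenoma/MIN (lowest without FVB replicate 2), 16 to 28 at early carcinoma and 13 to 32 promoter hypo-DMCs at late carcinoma (both lowest without PyMT replicate 1).

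Replicate numbers are shared between groups, but they did not pair the samples: the correlation of deviations over 10 pairs ran from -0.105 to 0.0799, none above 0.1. With the replicate number as a block 15 promoters were higher and 7 lower, 5 bodies higher and 32 lower, and 0 promoters and 0 bodies passed the interaction. In late carcinoma the block left 101 hyper- and 459 hypo-DMCs in bodies.

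Reads are not mice in the DMC test, and promoters with 4 positions, such as those of Col1a1 and Col1a2, rest on few CpGs. Only CpGs in the sequenced fragments were read. With at least 10 reads asked for in all 22 samples and 3 positions per region, 11 promoters were not testable. Of these 3 held 1 or 2 such positions and 8 held none.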
